A study of Mus musculus with 21 samples.

Results

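RGS proteins (regulators of G-protein signalling) shorten the signal that a chemoattractant or hormone receptor sends through heterotrimeric G proteins. The 9 genes described here, Rgs1, Rgs2, Rgs3, Rgs10, Rgs13, Rgs14, Rgs16, Rgs18 and Rgs19, were taken by symbol from 20018 mouse genes with a named probe, and all 9 had one. A gene's probes were those whose RefSeq accession maps to its symbol, and the probe with the highest mean level over the 21 arrays was taken as its main probe. The probes were thus chosen by that mean level over all arrays, whatever their group. The genes themselves were selected on earlier results of these data, differences between these groups included, so the p-values below are no independent evidence about them.

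When a receptor is occupied, its G-protein alpha subunit takes up GTP and separates from the beta-gamma pair, and both parts signal until the alpha subunit hydrolyses the GTP. RGS proteins speed that hydrolysis, which ends the signal and lowers the cell's response to chemokines. In B cells Rgs1, Rgs13 and Rgs16 are known for limiting migration towards chemokines, and Rgs1 for its high level in germinal-centre and activated B cells. Rgs1, Rgs2, Rgs3, Rgs13, Rgs16 and Rgs18 belong to the R4 subfamily, which in most members is little more than the catalytic RGS domain; Rgs10 and Rgs14 belong to the R12 subfamily and Rgs19, also called GAIP, to the RZ subfamily.

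The study measured gene expression on single-colour Agilent arrays in 3 experiments concerning the bZIP transcription repressors Bach1 and Bach2. Common lymphoid progenitors (CLPs) came from mice doubly deficient in Bach1 and Bach2 (DD) and from wild-type (WT) mice; they were pooled from several animals and sorted after bead depletion of part of the lineage-positive bone marrow. Multipotent progenitors (MPPs; lineage-negative, c-kit+, Sca-1+, Flt3mid) came from WT mice, pooled 4 per experiment, spent a night in cytokines (SCF at 50 ng/ml, IL-6 at 10 ng/ml and IL-3 at 5 ng/ml) and were infected with an MSCV retrovirus. Follicular B cells came from Bach2-knockout (Bach2KO) and WT mice. The B220+ group was infected with the Bach2-GFP virus, kept for 24 h in multilineage and for 6 days in B-lineage culture, and sorted for GFP and B220, a surface protein of B-lineage cells. Bach2-vector MPPs (Bach2-GFP virus) and control-vector MPPs (GFP virus) were sorted for GFP after 2 days of multilineage culture. All MPP-derived groups thus carried a GFP virus and endogenous Bach1 and Bach2, and only sorted GFP+ cells were measured. Follicular B cells of both genotypes were cultured for 24 h in 10 ug/ml anti-IgM Fab', which engages the B-cell receptor, so that no unstimulated B cell is among the samples. Each of the 7 groups had 3 arrays. Age, sex and strain of the animals were not stated in the sources used here.

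A level here is the log2 signal minus the 75th percentile of log2 signal on its array, and levels are set against each other only within one probe. The share of spots well above background ran from 50.9% to 58.8% on follicular B-cell arrays and from 62.6% to 81.5% on the other 15. Bach2KO replicate 2 was the dimmest array, with a 75th percentile of 97.3, where the other follicular B-cell arrays had 194.5 to 357.5. RNA of CLPs and MPP-derived cells was amplified in 2 rounds and that of follicular B cells by another protocol, so cell type and amplification cannot be told apart across experiments. The protocol for follicular B cells mentions one RNA sample, and nothing names separate cultures for the replicates, so the spread between arrays may be technical in part. Replicate 3 of each MPP-derived group stood apart in the Y-linked Ddx3y, which read -8.69 in B220+, -9.32 in Bach2-vector and -9.09 in control-vector cells and was not well above background there, against 0.82 to 1.59 on their other 6 arrays. In the follicular B cells Xist was well above background on replicate 1 of each genotype alone, at -2.32 in Bach2KO and -1.49 in WT cells. The brighter Bach2 probe averaged 0.33 ± 0.75 in DD and 2.45 ± 0.98 in WT CLPs, and -0.39 ± 0.54 in Bach2KO and 3.37 ± 0.27 in WT follicular B cells (SD, n = 3 each). On that probe B220+ cells (-3.11 ± 0.86) and Bach2-vector MPPs (-1.84 ± 0.84) both overlapped control-vector MPPs (-2.99 ± 0.86). The dimmer Bach2 probe read -3.89 ± 2.04 in B220+ cells and -2.91 ± 1.44 in Bach2-vector MPPs, above all control-vector arrays (-7.34 ± 1.13). Where the probes lie relative to the deletion and the vector insert is not known. Bach1 averaged 1.48 ± 0.82 in DD and 2.00 ± 0.16 in WT CLPs, which overlapped. It read 0.60 to 1.07 in Bach2-vector and 1.43 to 2.15 in control-vector MPPs, without overlap, and -0.15 to 2.30 in B220+ cells. In follicular B cells it read 1.27 to 1.81 in Bach2KO and 0.90 to 1.25 in WT cells, narrowly without overlap.

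Promoters of the genes that the tests below singled out are shown because a Bach2-dependent gene is often described by the sites that Bach factors share with AP-1 and Nrf2. RefSeq's table for GRCm38.p6 gave start sites for 6 of the 9 genes (Rgs2, Rgs3, Rgs10, Rgs13, Rgs16 and Rgs19), and Rgs1, Rgs14 and Rgs18 had no entry. The 250 bases before the start of Rgs16 (chr1:153740103-153740352, plus strand) and of Rgs10 (chr7:128418173-128418422, minus strand) read, 5′ to 3′:
Rgs16: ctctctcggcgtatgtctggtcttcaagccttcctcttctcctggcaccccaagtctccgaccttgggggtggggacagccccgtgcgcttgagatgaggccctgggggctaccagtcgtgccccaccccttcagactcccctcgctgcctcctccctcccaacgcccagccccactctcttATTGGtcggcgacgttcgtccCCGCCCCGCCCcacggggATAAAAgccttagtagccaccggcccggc
Rgs10: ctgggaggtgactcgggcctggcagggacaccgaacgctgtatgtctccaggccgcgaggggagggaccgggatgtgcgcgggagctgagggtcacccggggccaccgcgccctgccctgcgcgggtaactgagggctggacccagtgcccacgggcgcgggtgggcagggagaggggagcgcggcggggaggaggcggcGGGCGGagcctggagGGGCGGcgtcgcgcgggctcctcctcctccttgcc
Capitals mark matches, on either strand, to a TATA-like motif (ATAAAA), the CCAAT box and the GC box (GGGCGG), whose reverse complements are printed where the match lies on the reverse strand; the motifs were chosen after the windows had been seen. The Rgs16 window held 1 TATA-like match, which begins at -29 from the start, 1 CCAAT box at -68 and 2 GC boxes that overlap each other, and 66.4% of its bases were G or C. The Rgs10 window held 2 GC boxes and neither of the other motifs, with 76.4% G or C. Of 32851 mouse windows of the same length, 17.0% held the TATA-like motif, 33.8% a CCAAT box and 32.7% a GC box. The core of the AP-1 and Bach-Maf sites, TGANTCA, and the core of the antioxidant response element, TGACNNNGC, which can overlap each other, were searched on both strands. They matched in 0 of the 9 member windows, which are 9 start sites of the 6 genes, against 6.75% and 10.2% of all windows; sites elsewhere in the genes were not searched.

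In anti-IgM-stimulated follicular B cells, Rgs1 and Rgs16 were far higher without Bach2, and none of the other 7 RGS genes passed the test. The question was what Bach2 loss does to transcripts of B cells signalling through their receptor. Rgs16, which acts on Gi and Gq alpha subunits, read 5.55, 5.89 and 4.95 in Bach2KO cells, and WT cells had -0.07, -0.25 and -0.02. Every Bach2KO array lay above every WT array, and the WT arrays differed little from each other. The difference was 5.58 ± 0.33 on the log2 scale (SE, n = 3 per genotype), or 47.7-fold (limma, adjusted p = 1.57e-04). Rgs1, a brake on chemokine-driven migration of B cells, read 4.04, 3.91 and 3.11 in Bach2KO cells and 0.32, 0.08 and -0.27 in WT cells. Here too all knockout arrays lay above all WT arrays. The log2 difference was 3.64 ± 0.36, or 12.5-fold (limma, adjusted p = 9.18e-04). Within slide 1, which held 1 array per genotype, Rgs16 differed by 5.61 and Rgs1 by 3.72; within slide 2, which held 2 per genotype, they differed by 5.56 and 3.61.

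Of the 9 genes tested in follicular B cells, 2 passed and both rose, beside 2.72% of the 13072 genes tested (2.2% higher and 0.513% lower). The groups did not overlap for 6 of the 9 genes (66.7%), 3 higher and 3 lower in Bach2KO cells, beside 18.7% of all genes tested (8.12% higher and 10.6% lower). The median log2 difference of the 9 was 0.09, beside -0.16 over all genes.

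The other genes gave smaller differences, in both directions, and did not pass. Rgs10, a short R12 member known from microglia and lymphocytes, read 5.65, 5.92 and 5.75 in Bach2KO cells and 5.36, 4.36 and 4.92 in WT cells, which do not overlap (0.89 ± 0.34, limma, adjusted p = 0.348). Rgs3 read 4.40, 4.60 and 3.82 in Bach2KO cells, and WT cells had 3.89, 3.37 and 3.36, where WT replicate 1 lay above Bach2KO replicate 3 (0.73 ± 0.34, adjusted p = 0.493). Its other probes gave 0.71 ± 0.38 and 0.93 ± 0.32, so all 3 read higher in the knockout, with adjusted p of 0.581 and 0.259. Rgs2, which acts chiefly on Gq, read 6.40, 5.26 and 5.55 in Bach2KO cells and 6.16, 5.35 and 5.45 in WT cells. Those arrays lay intermingled (0.09 ± 0.40, adjusted p = 0.945), and the sign of this small difference depended on the arrays used.

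Below WT in every array of Bach2KO cells were Rgs13, Rgs14 and Rgs19. Rgs13, known from germinal-centre B cells and mast cells, read -0.82, -1.43 and -0.73 in Bach2KO cells and 1.46, -0.69 and -0.06 in WT cells (-1.23 ± 0.53, limma, adjusted p = 0.443). WT replicate 1 carried much of that gap, since without it the difference was -0.62. Rgs14, a scaffold that also binds Ras-family GTPases, read 1.30, 0.68 and 0.81 in Bach2KO cells, and WT cells had 1.67, 1.33 and 1.34 (-0.51 ± 0.31, adjusted p = 0.637). Rgs19 read 4.28, 3.88 and 4.18 in Bach2KO cells, and WT cells had 5.12, 4.41 and 4.62 (-0.60 ± 0.32, adjusted p = 0.577), and its other probes gave -0.49 and -0.56. The values of Rgs13, Rgs14 and Rgs19 do not overlap for the main probe, though the gap between the nearest arrays was small for each. Rgs18, the main RGS gene of platelets and their precursors, read -3.55, -5.60 and -4.39 in Bach2KO cells, where 1 of 3 arrays was well above background, and -1.73, -3.71 and -2.93 in WT cells (-1.72 ± 0.62, adjusted p = 0.300). The knockout values therefore lay mostly near background, and with normexp background correction the difference was -0.32 (adjusted p = 0.919).

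**Figure D1:**
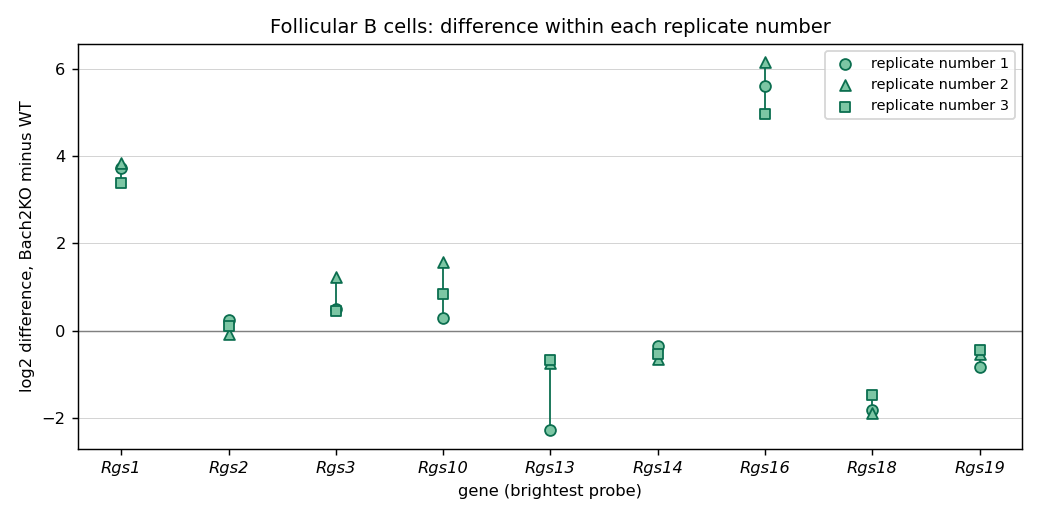
Log2 difference of each RGS gene, Bach2KO minus WT follicular B cells (y axis, log2 units), within replicate numbers 1, 2 and 3 (circle, triangle and square; the vertical line joins them), by gene (x axis, main probe). All 3 differences lie between 3.38 and 6.14 for Rgs1 and Rgs16 and below 0 for Rgs13, Rgs14, Rgs18 and Rgs19, while those of Rgs2 lie on both sides of 0.

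The replicate numbers of the follicular B cells were taken to pair the arrays, as same-numbered arrays deviated together in these data. Some other-numbered arrays did so too, such as Bach2KO replicate 2 with WT replicate 3 (r = 0.50, against 0.53 for pair 3). The plot of differences by replicate number shows each gene within these pairs. Rgs18 differed by -1.81, -1.89 and -1.47 in pairs 1 to 3, and Rgs10 by 0.29, 1.56 and 0.83. With the replicate number as a block, 7 of the 9 genes passed, against 22.8% of all genes tested in that fit (9.57% higher and 13.2% lower). Rgs1, Rgs3, Rgs10 and Rgs16 were then higher and Rgs13, Rgs18 and Rgs19 lower in Bach2KO cells. For the 5 genes that passed there and not without a block, the adjusted p (limma, replicate block) was 0.0266 for Rgs3, 0.0157 for Rgs10, 0.00553 for Rgs13, 1.90e-05 for Rgs18 and 0.0428 for Rgs19. Rgs14 had 3 differences below 0 and did not pass. With slide as the block, Rgs18 passed again (limma, adjusted p = 0.0153) beside Rgs1 and Rgs16, so that 3 of the 9 genes passed, against 9.14% of all genes in that fit.

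Marker lists of other cell types also differed between the genotypes on these arrays. Of 8 mature B-cell markers 6 read lower in Bach2KO cells, with a list mean of 3.87 to 4.52 against 4.49 to 5.11 in WT cells, and Cr2 fell by 2.06 ± 0.31 (limma, adjusted p = 0.00867). The list mean of 8 T-lineage markers was -0.06 to 0.63 in Bach2KO and -0.60 to -0.34 in WT cells, that of 11 monocyte and macrophage markers -2.32 to -1.33 and -3.11 to -2.53, and that of 14 granulocyte markers -2.72 to -0.96 and -4.52 to -2.11. Of the 9 granulocyte markers tested 8 read higher and 1 lower in Bach2KO cells, with a median log2 difference of 2.85, and 0 passed. The mean of 8 dendritic-cell markers was 0.13 to 0.78 in Bach2KO and -0.32 to -0.01 in WT cells. That of 8 NK and innate lymphoid markers was -2.87 to -1.82 in Bach2KO and -3.26 to -3.11 in WT cells, and Il2rb among them rose by 4.62 ± 0.28 (limma, adjusted p = 1.57e-04). Klrd1, Klrb1c and Ncr1 of this list were well above background on none of these 6 arrays. Of the 5 tested 4 read higher and 1 lower in Bach2KO cells, and Il2rb alone passed. Of 10 marker lists 4 separated the genotypes by their list mean (T-lineage, monocyte and macrophage, dendritic, and NK and innate lymphoid), all higher in Bach2KO cells. Among the 6 dendritic markers tested, however, 4 read higher and 2 lower, and the 1 that passed was lower in Bach2KO cells. Of 14 megakaryocyte and erythroid markers 8 were on no Bach2KO and 9 on no WT array, Pf4 was at least 4.02-fold higher (adjusted p = 0.00917) and Hba-a1 13.3-fold higher in Bach2KO cells (adjusted p = 0.0392). Of the 11 monocyte and macrophage markers, 4 were on no Bach2KO array, Ccr2, F13a1 and C5ar1 among them, and 5 on no WT array. Of the 7 tested 0 passed, with 4 differences above 0 and 3 below, and Lyz2 at 2.81, Cd14 at 1.57 and Cx3cr1, at least 2.98-fold higher, separated the genotypes (limma, adjusted p = 0.0640, 0.0704 and 0.123). Of the 8 mast-cell and basophil markers 6 (Cpa3, Mcpt8, Fcer1a, Ms4a2, Gata2 and Cma1) were well above background on none of these 6 arrays. In bulk samples fewer cells of a type and less RNA per cell cannot be told apart, and the part of other cells in the RGS differences was not tested.

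**Figure D2:**
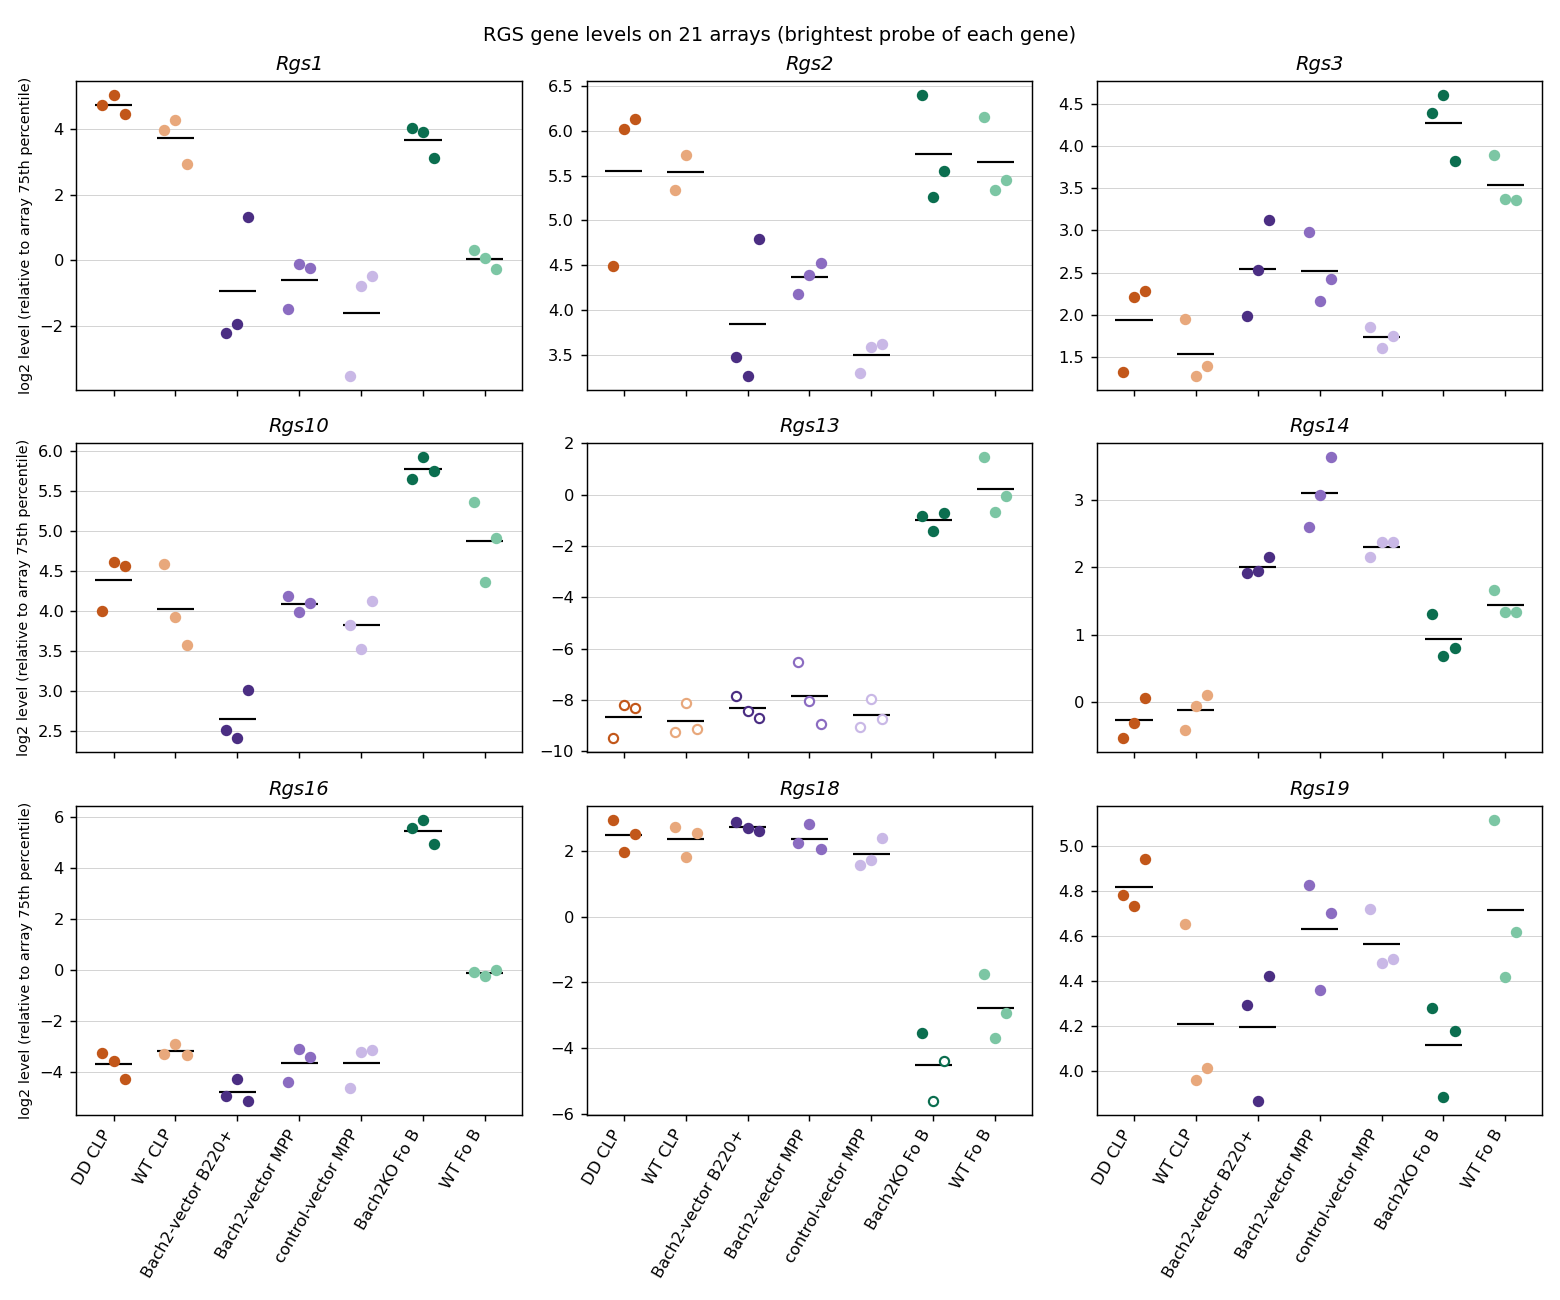
Log2 level relative to the array's 75th percentile (y axis) of the 9 RGS genes in the 7 groups (x axis). Each point is 1 array, the line is the group mean, and open points are not well above background; Rgs16 and Rgs1 stand high in Bach2KO follicular B cells, Rgs13 is open outside follicular B cells and Rgs18 lies low within them.

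Across the 7 groups the genes fell into different patterns, given here as a description without a test. Rgs16 was highest in Bach2KO follicular B cells (5.46 ± 0.48, SD, n = 3), followed by WT follicular B cells (-0.11 ± 0.12), with no overlap between them or with the next group. Its 5 CLP and MPP-derived groups averaged from -3.17 ± 0.24 in WT CLPs down to -4.77 ± 0.43 in B220+ cells. In that order each overlapped the next, except that the B220+ cells (-5.11 to -4.29) lay just below the DD CLPs (lowest -4.27). The B220+ cells did overlap both MPP groups. Rgs13 was well above background on the 6 follicular B-cell arrays and on 0 of the other 15. Rgs18 showed the reverse arrangement, with group means of 1.92 to 2.73 in the 5 CLP and MPP-derived groups and of -4.51 and -2.79 in Bach2KO and WT follicular B cells. Among those 5 each group overlapped the next in order, but B220+ cells (2.61 to 2.88) lay above control-vector MPPs (1.59 to 2.41).

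Rgs1 was highest in CLPs, at 4.75 ± 0.29 in DD and 3.73 ± 0.70 in WT cells, and Bach2KO follicular B cells (3.69 ± 0.50) overlapped the WT CLPs. WT follicular B cells followed at 0.05 ± 0.30, and the MPP-derived groups at -0.61 ± 0.77 (Bach2 vector), -0.94 ± 1.96 (B220+) and -1.60 ± 1.68 (control vector) overlapped their neighbours in this order. Rgs14 separated most neighbouring groups, from 3.1 ± 0.51 in Bach2-vector and 2.30 ± 0.13 in control-vector MPPs to 2.00 ± 0.13 in B220+ cells, with follicular B cells lower, at 0.93 ± 0.33 in Bach2KO and 1.44 ± 0.19 in WT cells. Only its CLPs, at -0.26 ± 0.30 in DD and -0.13 ± 0.27 in WT cells, overlapped each other.

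On their main probes, Rgs2, Rgs3 and Rgs10 were highest in follicular B cells. Rgs2 averaged 5.74 ± 0.59 in Bach2KO and 5.65 ± 0.44 in WT follicular B cells and overlapped the CLPs, while the MPP-derived groups lay at 3.50 to 4.37. Its dimmer probe gave another order, highest in DD (-2.02 ± 0.52) and WT CLPs (-2.07 ± 0.12), with Bach2KO (-3.73 ± 0.39) and WT follicular B cells (-3.79 ± 0.63) among the MPP-derived groups. Rgs3 averaged 4.27 ± 0.41 in Bach2KO and 3.54 ± 0.30 in WT follicular B cells, above 1.54 to 2.55 in the other groups. Rgs10 ran from 5.77 ± 0.14 in Bach2KO follicular B cells to 2.64 ± 0.33 in B220+ cells, and only the highest and the lowest group stood clear of their neighbours. Rgs19 was the flattest on the main probes, with group means within 0.70 log2 units of each other and every group overlapping the next. With quantile normalization over the 21 arrays the highest group stayed the same for 8 of the 9 genes, Rgs19 being the exception, and the lowest for 7, all but Rgs13 and Rgs19.

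In MPPs after 2 days, the Bach2 vector moved no RGS gene past the test, although all 8 genes tested averaged higher with it on their main probes. The question was what extra Bach2 does in progenitors under multilineage conditions. Rgs14 read 2.60, 3.07 and 3.63 with the Bach2 vector and 2.15, 2.37 and 2.37 with the control vector, without overlap (0.80 ± 0.29, limma, adjusted p = 0.349). Rgs2 read 4.18, 4.39 and 4.53 with the Bach2 vector, against 3.29, 3.58 and 3.62 with the control vector (0.87 ± 0.38, adjusted p = 0.577). Its dimmer probe separated the groups as well and gave 0.72 ± 0.29 (adjusted p = 0.477).

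Rgs3 read 2.98, 2.16 and 2.43 on its main probe with the Bach2 vector and 1.85, 1.60 and 1.74 with the control vector (0.79 ± 0.34, adjusted p = 0.540). Thus 3 of 8 genes (37.5%) separated the groups, all upward, beside 7.66% of all 16985 genes tested upward and 14.9% either way; 0 passed, beside 1.8% of all genes (1.07% upward), and 2 had an unadjusted p under 0.05 (limma), beside 8.66%. The median log2 difference of the 8 was 0.63, beside -0.02 over all genes. The remaining genes overlapped between vectors. Rgs1 read -1.50, -0.10 and -0.24 with the Bach2 vector and -3.54, -0.78 and -0.49 with the control vector, a difference of 0.99 ± 1.05 that control-vector replicate 1 decided, since it was 0.02 without that array. Rgs18 differed by 0.46 ± 0.30, Rgs10 by 0.27 ± 0.26, Rgs19 by 0.07 ± 0.25 and Rgs16 by 0.02 ± 0.49, with adjusted p of at least 0.999 for each. On Rgs16 the sign turned with other background correction and scaling.

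Marker lists of other cell types differed between the vectors as well, and 7 of 10 lists separated the groups. The mean of 11 monocyte and macrophage markers was -1.87 to -0.56 with the Bach2 vector and -0.43 to 0.70 with the control vector, and that of 14 granulocyte markers was 0.25 to 1.69 and 1.89 to 2.94. F13a1, a monocyte transcript, was 19.7-fold and the neutrophil collagenase gene Mmp8 68.3-fold lower with the Bach2 vector (limma, adjusted p = 0.0378 and 0.00241). Mmp8 was the only granulocyte marker that passed. Of the 14, 13 read lower and 1 higher, with a median log2 difference of -0.75, and Mpo, Ctsg and Prtn3 differed by -0.30, -0.15 and -0.34. Of the 11 monocyte and macrophage markers 3 passed, all lower, and 10 read lower and 1 higher. Higher with the Bach2 vector were the NK and innate lymphoid list, at -2.47 to -2.35 against -3.94 to -3.42 with the control vector, and the dendritic list, at 1.77 to 2.13 against 0.88 to 1.56. The T-lineage list (-3.43 to -2.90 against -3.95 to -3.46) and the early and mature B lists were also higher. The part of these shifts in the RGS values was not tested.

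The B220+ cells, sorted after the longer culture, differed from both MPP groups in Rgs10. Rgs10 read 2.50, 2.41 and 3.01 in B220+ cells, against 4.19, 3.99 and 4.10 in Bach2-vector and 3.83, 3.53 and 4.13 in control-vector MPPs. Every B220+ array lay below every MPP array. Against Bach2-vector MPPs it fell by 1.45 (log2 -1.45 ± 0.26, 2.74-fold, limma, adjusted p = 0.0137) and against control-vector MPPs by 1.19 (-1.19 ± 0.26, 2.28-fold, limma, adjusted p = 0.0201). Both calls depended on single arrays. Without B220+ replicate 1 or 2 the adjusted p was 0.0556 or 0.0553 against Bach2-vector MPPs and 0.0699 in either case against control-vector MPPs. It was 0.0545 without Bach2-vector replicate 3 and 0.0804 without control-vector replicate 3. Within slide 1, which held the 3 B220+ arrays and 1 array of each MPP group, Rgs10 differed by -1.55 from the Bach2-vector array and by -1.19 from the control-vector array. With slide as a block both calls held (adjusted p = 0.0388 and 0.0454). Both comparisons share the B220+ arrays, and time in culture, culture condition and sort differ together between these groups and cannot be told apart.

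Against Bach2-vector MPPs, 1 of 8 genes passed, beside 6.17% of all genes (4.16% lower), and 2 of 8 (25.0%) separated the groups, beside 29.2% (21.7% lower). The second gene was Rgs14, at 1.91, 1.94 and 2.14 in B220+ cells, against 2.60, 3.07 and 3.63 in Bach2-vector MPPs (-1.10 ± 0.29, limma, adjusted p = 0.0566). It passed under 4 other settings and without Bach2-vector replicate 1 (adjusted p = 0.0310), and with the slide block it was -0.78 (adjusted p = 0.178). The median difference of the 8 was -0.48, beside -0.25 over all genes. Rgs16 read -4.92, -4.29 and -5.11 in B220+ cells and -4.38, -3.09 and -3.41 in Bach2-vector MPPs, which overlap (-1.15 ± 0.49, adjusted p = 0.193). All B220+ arrays lay on slide 1, and with slide as a block Rgs16 differed by -0.28 from Bach2-vector and by -0.27 from control-vector MPPs; within slide 1 it differed by -0.40 and -0.15, and with normexp by -0.64 from each. Rgs19 differed by -0.44 ± 0.25, Rgs18 by 0.35 ± 0.30 and Rgs2 by -0.52 ± 0.38, and their groups overlapped.

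Against control-vector MPPs, 1 of 8 genes passed, beside 12.1% of all genes (7.45% lower), and 5 of 8 (62.5%) separated the groups, beside 34.5% (11.0% higher and 23.5% lower). Rgs3 and Rgs18 lay above and Rgs10, Rgs14 and Rgs19 below the control-vector arrays. Rgs14 did so narrowly, with its highest B220+ array at 2.145 and its lowest control-vector array at 2.151. Rgs18 read 2.88, 2.70 and 2.61 in B220+ cells and 1.59, 1.74 and 2.41 in control-vector MPPs (0.82 ± 0.30, limma, adjusted p = 0.114). Rgs3 read 1.98, 2.53 and 3.13 in B220+ cells (0.81 ± 0.34, adjusted p = 0.146), with B220+ replicate 1 little above the highest control-vector array; its second probe went the other way (-0.74 ± 0.24, adjusted p = 0.0773). Rgs14 differed by -0.30 ± 0.29, Rgs19 by -0.37 ± 0.25 and Rgs16 by -1.13 ± 0.49, with adjusted p of 0.499, 0.335 and 0.158; Rgs16 passed without control-vector replicate 1 (adjusted p = 0.0407). With the slide block Rgs18 was 1.04, Rgs3 0.52 and Rgs19 -0.55, and none of them passed. The median of the 8 was 0.02, beside -0.29 over all genes.

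One array set the B220+ values of Rgs1 and Rgs2. Rgs1 read -2.21, -1.94 and 1.32 in B220+ replicates 1 to 3, and Rgs2 3.48, 3.26 and 4.79. Replicate 3 thus lay highest for both. The mean of 8 mast-cell and basophil markers was 1.32, 0.20 and 3.48 on the same arrays, against -1.81, 0.20 and 0.09 in Bach2-vector and -2.27, -0.81 and -0.76 in control-vector MPPs, and its part in these values was not tested. Against control-vector MPPs, Rgs1 differed by 0.66 ± 1.05 and Rgs2 by 0.35 ± 0.38; without that array both turned, to -0.47 and -0.13, and Rgs1 turned to -0.31 without control-vector replicate 1. With slide as a block Rgs1 was 2.07 (adjusted p = 0.294) and Rgs2 0.54, and within slide 1, which holds 1 control-vector array, Rgs1 was 2.60 and Rgs2 0.55. Against Bach2-vector MPPs, Rgs1 differed by -0.33 ± 1.05 and by 1.08 with the slide block, and without the array Rgs2 passed the threshold, lower in B220+ cells (limma, adjusted p = 0.0354). The mean of 14 granulocyte markers was 2.81 to 3.47 in B220+ cells, against 0.25 to 1.69 in Bach2-vector and 1.89 to 2.94 in control-vector MPPs. The single markers were mixed: against control-vector MPPs 7 read higher and 7 lower (median log2 difference -0.01), and 3 passed in each direction. Against Bach2-vector MPPs 11 read higher and 3 lower (median 1.31), and 4 passed higher and 2 lower. Of 12 early B markers all were on at least 1 B220+ array, with a list mean of -3.04 to -1.90, against -3.35 to -3.13 and -4.41 to -3.51, and the mature B-cell gene Ms4a1 was well above background on none of the 9 arrays. In all, 6 of 10 marker lists separated B220+ cells from Bach2-vector MPPs and 5 of 10 from control-vector MPPs.

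**Figure D3:**
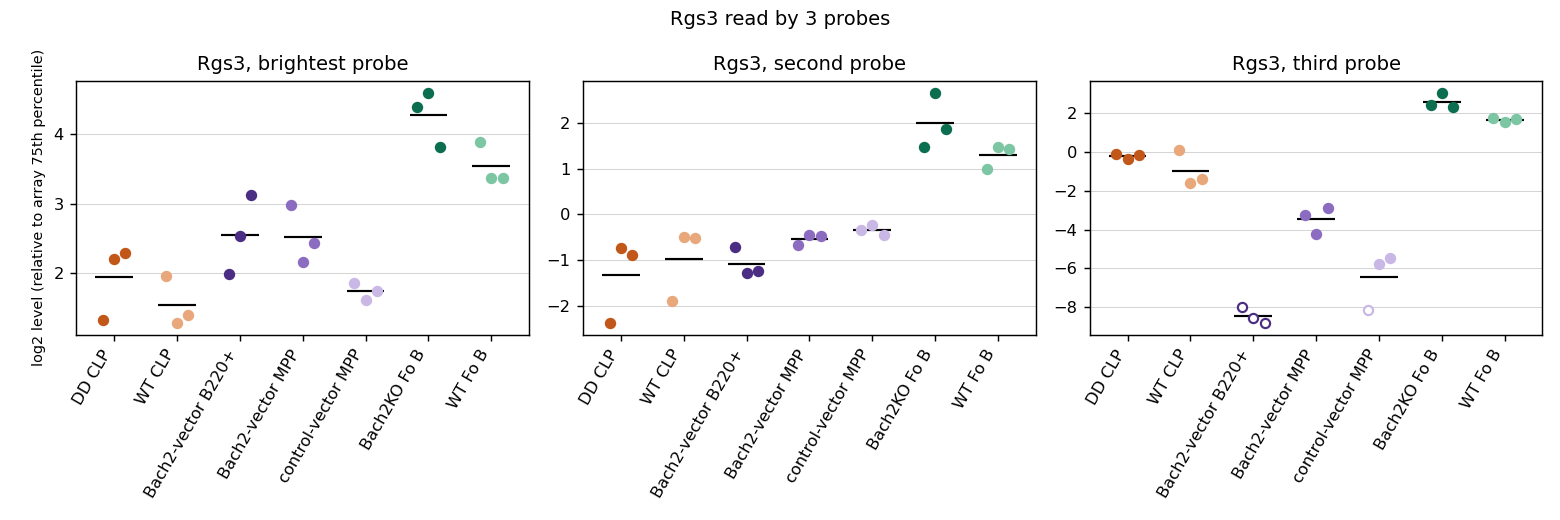
Log2 level relative to the array's 75th percentile (y axis, separate scale per panel) of the 3 Rgs3 probes in the 7 groups (x axis). Points are arrays, lines group means and open points not well above background; the dimmest probe (right panel) falls to background in B220+ cells, where the main probe overlaps Bach2-vector MPPs.

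Rgs3 has transcripts that start far apart, and its 3 probes did not move together in the MPP experiment. The main and second probes carry one RefSeq accession and the dimmest another, so they may read different transcripts. The dimmest probe read -3.25, -4.24 and -2.91 in Bach2-vector MPPs and -8.12, -5.78 and -5.46 in control-vector MPPs, where 2 of 3 arrays were well above background (2.99 ± 0.67, limma, adjusted p = 0.0723). In B220+ cells it was well above background on 0 of 3 arrays and at least 7.10-fold lower than in Bach2-vector MPPs (adjusted p = 0.00343), taking as the bound the dimmest signal well above background on each array. The main probe differed there by 0.02 ± 0.34 and the second by -0.55 ± 0.24 (adjusted p = 0.972 and 0.202). Between vectors the second probe read -0.19 ± 0.24, against 0.79 for the main probe. As the plot of the 3 Rgs3 probes shows, the probes had one sign in follicular B cells, where each was higher in Bach2KO than in WT cells on average.

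In CLPs no RGS gene passed. Here the question was what joint loss of both Bach factors does in lymphoid progenitors. Rgs1 read 4.75, 5.05 and 4.46 in DD CLPs and 3.98, 4.28 and 2.94 in WT CLPs, without overlap (1.02 ± 0.43, 2.03-fold, limma, adjusted p = 0.999). Rgs19 read 4.78, 4.73 and 4.94 in DD CLPs, against 4.65, 3.96 and 4.01 in WT CLPs (0.61 ± 0.35, adjusted p = 0.999). Its second probe had the same sign (0.34) and its dimmest the opposite one (-0.25). Of the 8 genes tested 0 passed, beside 0.00607% of the 16461 genes tested, and 1, Rgs1, had an unadjusted p under 0.05, beside 3.76%. Groups did not overlap for 2 of 8 (25.0%), both higher, beside 7.91% (4.93% higher).

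The other CLP differences did not pass either, and their groups overlapped. Rgs16 differed by -0.53 ± 0.38, Rgs3 by 0.40 ± 0.40, Rgs10 by 0.36 ± 0.39, Rgs14 by -0.14 ± 0.35 and Rgs18 by 0.12 ± 0.41, with adjusted p of 0.999 for each. Rgs2 read 4.50, 6.02 and 6.13 in DD CLPs and 5.34 and 5.73 in WT CLPs, where the spot of replicate 3 was an outlier and was left out (0.01 ± 0.57). DD replicate 1 lay below the rest. The median of the 8 was 0.24, beside 0.04 over all genes. On simulated data for this comparison 0 of 50 genes changed 2-fold were recovered and 13 of 50 changed 4-fold. Changes near the size seen for Rgs1 were thus not recovered in that simulation, which cannot say whether this gene changed.

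WT replicate 3 was the lowest Rgs1 array of the CLPs, and without it the difference was 0.62. The mean of 14 granulocyte markers was 0.84 on that array, against -3.76 and -3.38 on the other WT arrays, and -1.69, -0.12 and -2.85 on the DD arrays. Of 10 marker lists 3 separated the genotypes. The progenitor list was higher in DD CLPs (2.14 to 2.36, against 1.69 to 1.77 in WT CLPs), and the mature B list (-1.52 to -1.40 against -1.29 to -0.82) and, narrowly, the NK and innate lymphoid list (-2.50 to -1.57 against -1.56 to -1.30) were lower. Their part in the Rgs1 values was not tested.

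**Figure D4:**
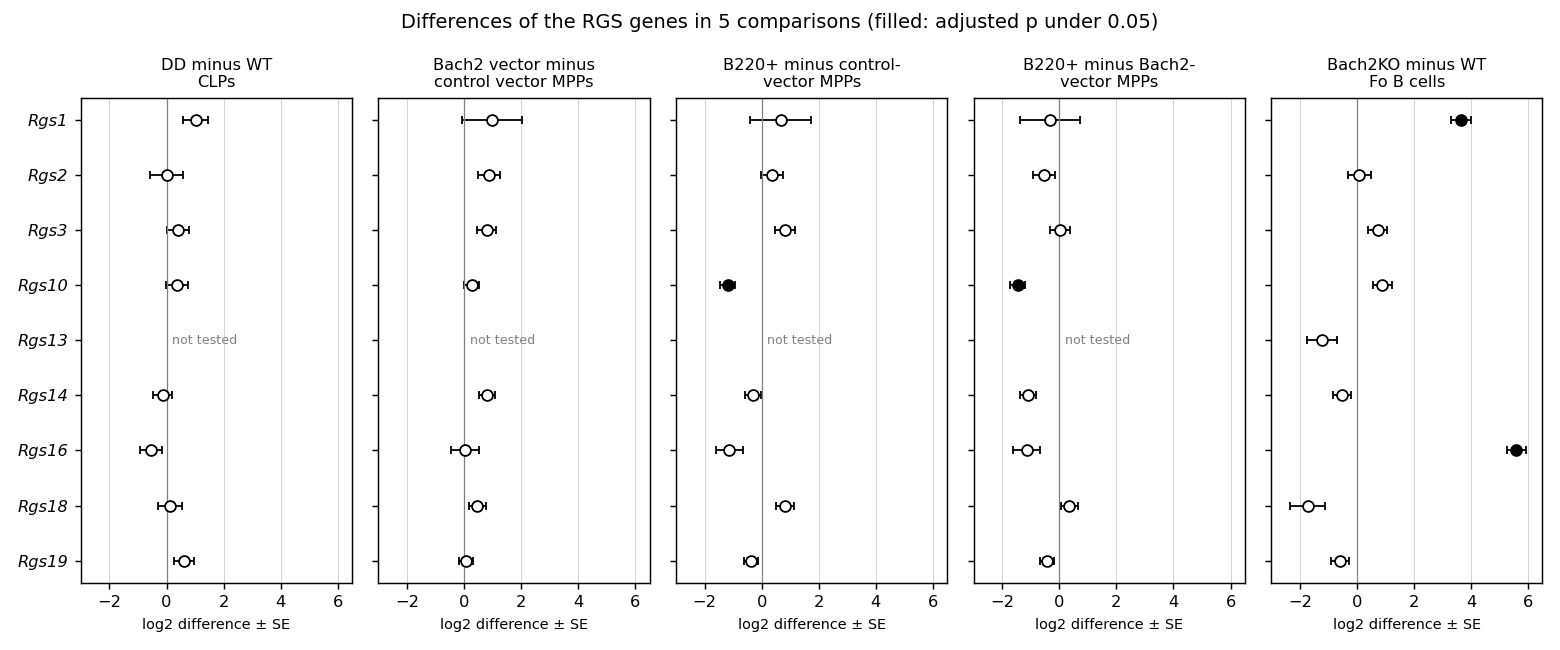
Log2 difference ± SE (x axis) of each RGS gene (y axis, main probe) in the 5 comparisons, first-named group minus second. Filled points have an adjusted p under 0.05 (limma); they are Rgs10 in both B220+ comparisons and Rgs1 and Rgs16 in follicular B cells.

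Rgs1 and Rgs16 are set side by side in the plot of all 5 comparisons. Rgs1 differed by 3.64 in Bach2KO follicular B cells, by 1.02 in DD CLPs and by 0.99 with the Bach2 vector, and Rgs16 by 5.58, -0.53 and 0.02. The contrasts differ in genotype, cell and culture, and the difference between them was not tested. The vector comparison and both B220+ comparisons share arrays.

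Other RGS genes, taken from a list of 12 of which 10 had a named probe, were tested beside them. Of 6 tested in follicular B cells 0 passed (limma; range of log2 differences -0.47 to 0.54), and Rgs20, an RZ relative of Rgs19, read 3.58 ± 0.57 in Bach2KO and 3.70 ± 0.30 in WT cells. Rgs8, next to Rgs16 on chromosome 1, was the 1 of 8 that passed between vectors. It averaged -7.20 ± 0.81 in Bach2-vector MPPs, well above background on 1 of 3 arrays, and -4.46 ± 0.89 in control-vector MPPs (-2.74 ± 0.54, adjusted p = 0.0420), and it was at least 3.55-fold lower in B220+ cells than in control-vector MPPs (adjusted p = 0.00693). In CLPs Rgs8 averaged 1.40 ± 0.45 in DD and 0.50 ± 0.37 in WT cells and did not pass. Rgs2, Rgs13, Rgs1, Rgs21 and Rgs18 follow each other on chromosome 1 in RefSeq's order of protein-coding genes. In follicular B cells these neighbours went different ways, with Rgs1 higher by 3.64, Rgs2 at 0.09, Rgs13 at -1.23 and Rgs18 at -1.72 on the log2 scale.

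Chemoattractant receptors, which signal through the G proteins that RGS proteins switch off, were a further list. Of its 30 genes 21 were tested in follicular B cells, where 5 rose, 1 fell and 15 did not pass, beside 2.72% of all genes (2.2% higher and 0.513% lower), with a median log2 difference of 0.85, beside -0.16 over all genes. Ccr9, the receptor of the gut chemokine CCL25, averaged 0.67 ± 0.19 in Bach2KO and -3.21 ± 0.47 in WT cells (14.7-fold, limma, adjusted p = 7.55e-04). The sphingosine-1-phosphate receptor gene S1pr3 rose by 1.62 ± 0.32. Ptafr, the receptor of platelet-activating factor, rose at least 2.33-fold and was well above background on 0 of 3 WT arrays. The formyl peptide receptor gene Fpr1 rose by 2.02 ± 0.44, with 1 of 3 WT arrays well above background. Ccr7, which guides lymphocytes into lymph nodes, averaged 5.27 ± 0.44 in Bach2KO and 6.92 ± 0.38 in WT cells (-1.64 ± 0.35, adjusted p = 0.0483). The adjusted p of the genes named here ranged up to 0.0496. The part of other cells in these receptor values was not tested.

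Among G-protein subunits and effectors in those cells 1 gene passed, beside 2.72% of all genes. Of 11 alpha subunits 0 passed, of 11 beta and gamma subunits Gng12 alone rose (1.51 ± 0.32, limma, adjusted p = 0.0476), and 0 of 10 receptor kinases, arrestins and dissociation inhibitors and 0 of 13 effectors passed. Between vectors, Ccr6 and Ccr7 rose by 3.90 ± 0.58 and 3.59 ± 0.40 among 30 receptors, C5ar1 was at least 4.86-fold lower with the Bach2 vector, and 0 of 14 alpha and 0 of 15 beta and gamma subunits passed, beside 1.8% of all genes.

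Against control-vector MPPs, 2 of 30 receptors rose (Ccr6 and Ccr7) and 6 fell in B220+ cells (C5ar1, C3ar1, Fpr2, S1pr2, Cxcr1 and Ccr1), beside 12.1% of all genes called (7.45% lower); the median of the 30 was 0.36, beside -0.29 over all genes. The alpha subunit gene Gna14 rose by 2.60 ± 0.70 and Gna12 fell by 1.39 ± 0.36, Gnb5 fell by 2.03 ± 0.23 and Gng12 by 1.57 ± 0.31. Gnb5 encodes the beta subunit that pairs with RGS proteins of the R7 subfamily. Grk3, a kinase that desensitizes receptors, rose by 2.03 ± 0.31, and Arhgef12, an exchange factor with an RGS-like domain, fell by 2.73 ± 0.26 (adjusted p = 4.11e-04). Against Bach2-vector MPPs, where 6.17% of all genes passed, Gnb5 and Gngt2 fell by 1.03 ± 0.23 and 1.19 ± 0.27, Ccr10 rose by 2.54 ± 0.44, Ccr1 and C3ar1 fell, Grk3 and Arrb1 rose, and Pik3r5 and Arhgef12 fell. In CLPs 0 genes of any of these lists passed.

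Genes whose levels ran most like each RGS gene over the arrays were found among 16481 genes, as a description. For Rgs16 they were Bhlhe41, which encodes a transcription repressor (Pearson r = 0.97 over 21 arrays), Ccl1, a chemokine, and Madcam1, a vascular adhesion molecule. Bhlhe41 averaged 0.21 in Bach2KO and -2.22 in WT follicular B cells and from -6.58 to -5.29 in the other groups. For Rgs1 they were Trim2 (r = 0.93), Ctla4, an inhibitory receptor gene of lymphocytes, and Hs3st1. The top gene was Rtl6 for Rgs2 (r = 0.94, 20 arrays), Capg for Rgs3 (0.96), Mtss1 for Rgs10 (0.90), Klhl14 for Rgs13 (0.99), Plscr1 for Rgs14 (0.96), Erlin1 for Rgs18 (0.98) and Alkbh3 for Rgs19 (0.84). The arrays share experiment, amplification and slide, and so part of each r is the step between experiments. Among the RGS genes themselves, Rgs16 and Rgs18 ran most opposed (r = -0.92), while r was 0.09 once each array was set against its own group's mean.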

How the data were processed

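Each array was a scan of single-colour Agilent mouse probes (62976 spots, 3671 of them controls). Per the file headers, Feature Extraction 10.7.3.1 made the background-corrected, processed spot intensities that were deposited, and the submitters' processing notes name version 9.1; the headers name mm9. The deposited series table held the same intensities. From these, log2 values minus each array's 75th percentile were computed here, since the deposited files hold no log2 values. Outlier spots were dropped and spots of a probe averaged. Names came from RefSeq GRCm38.p6 through unversioned accessions, so the files' coordinates were not used.

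Tests took in genes detected over background on 3 or more arrays of an experiment, fitted with limma 3.58.1 (lmFit and eBayes; R 4.3.3 with data.table, version 1.17.8), with Benjamini-Hochberg adjustment over all genes and a threshold of 0.05. The MPP-derived arrays shared one fit. Python 3.11.15, pandas 2.3.3, numpy 2.4.6 and matplotlib 3.10.9 did the rest. A probe above background on no array of a group gave a lower bound. The genes and lists were chosen with earlier results of these data known. All 9 genes are named, as are Bach1 and Bach2, up to 4 genes with the smallest p of each pathway list among those that passed, and the 3 genes with the highest r to each, of which some are given by the first alone. Rgs20, receptors beyond 4 and single markers were named after their values were seen. One gene that passed is not named. The alternatives were normexp background correction (on median signals, the mean signal being not used here), quantile normalization, other filters on dim probes and outlier spots kept. Further ones were the deposited series table, replicate and slide blocks, a variance trend, other probes and leaving out each array.

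Same-numbered arrays deviated together from their group means (r = 0.43, 0.39 and 0.22 in CLPs, 0.65, 0.41 and 0.30 between vectors, 0.86, 0.72 and 0.53 in follicular B cells), so the labels' replicate numbers were taken to pair them there. Arrays of other numbers sometimes did as well (Bach2KO 2 with WT 3, r = 0.50, and Bach2-vector 2 with control-vector 3, r = 0.31). Slide and number partly coincide. On simulated data the fit recovered 21 of 50 genes changed 4-fold and 43 of 50 changed 16-fold in follicular B cells. The number of arrays limits the precision.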

Additional observations from a re-analysis of the deposited data

How the results depend on the processing

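Rgs1 and Rgs16 passed in follicular B cells under all 15 alternatives run, at log2 differences of 3.25 to 3.93 and 5.12 to 5.83. Their adjusted p (limma) lay between 6.39e-09 and 0.00712 and between 5.15e-10 and 0.00183. Among the 15 was a fit on the deposited series table, which held the same intensities and so was hardly a change of setting. Both genes have 1 named probe each, so no other probe was among these alternatives. With the replicate block 7 RGS genes passed there in place of 2. With the slide block 3 passed (Rgs18 in addition), and without any one array 2. In CLPs and between vectors 0 passed under every alternative run, the replicate block included. Against control-vector MPPs 2 passed with normexp (Rgs10 and Rgs18), and 0 to 2 without single arrays. Against Bach2-vector MPPs 2 passed with normexp, with a filter on all arrays, with a variance trend and with the replicate block (Rgs10 and Rgs14 each time), 2 with the dimmest probes (Rgs10 and Rgs3), and 0 to 2 without single arrays. The slide block moved Rgs16 and Rgs1 in B220+ cells, and normexp Rgs18 in follicular B cells, by over 1.5 times, as given above. The cause was not tested.

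Small differences turned sign. In CLPs Rgs2 was -0.20 with quantile normalization and -0.28 with the replicate block, Rgs3 was -0.36 on its second and Rgs19 -0.25 on its dimmest probe. Between vectors Rgs16 was -0.0013 with normexp and -0.0061 with quantile normalization, Rgs3 -0.19 on its second and Rgs19 -0.13 on its dimmest probe. Against control-vector MPPs Rgs3 was -0.74 on its second probe and Rgs14 0.021 with the slide block. Against Bach2-vector MPPs Rgs3 was -0.55 on its second probe and -0.26 with the slide block, and Rgs1 was 1.08 with the slide block. In follicular B cells Rgs2 was -0.0043 with normexp. On the dimmest Rgs3 probe the fitted differences were -2.01 from control-vector and -4.99 from Bach2-vector MPPs, but no B220+ array was well above background there, so they are no measured sizes: the first has no settled direction, and the second is bounded at 7.10-fold or more.

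Leaving out single arrays gave -0.16 to 0.37 for Rgs18 and -0.28 to 0.54 for Rgs2 in CLPs, -0.47 to 0.39 for Rgs16 and -0.033 to 0.20 for Rgs19 between vectors, -0.47 to 1.29 for Rgs1 and -0.13 to 0.64 for Rgs2 against control-vector MPPs, -1.46 to 0.30 for Rgs1 and -0.26 to 0.31 for Rgs3 against Bach2-vector MPPs, and -0.24 to 0.34 for Rgs2 in follicular B cells. Over all genes, normexp called 105 higher and 18 lower in follicular B cells, against 288 and 67, and quantile normalization called 980 higher and 1037 lower in B220+ cells against control-vector MPPs, against 790 and 1266. The median of all genes there was -0.29, and -0.08 with quantile normalization. Protein identity was not run, and in CLPs the slide block is the replicate block. With 3 arrays a group, 0 to 6 of 50 genes changed 2-fold were recovered on simulated data. Those data held no group differences other than the planted ones. The adjusted threshold was therefore stricter there than in comparisons where many genes were called. Against control-vector MPPs 0 of 50 were recovered, although Rgs10 passed at 2.28-fold in the real B220+ arrays.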
